A study of Zea mays with 32 samples.

Results

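Of the 39756 genes in the deposited table of normalized counts, 402 (1.01%) were near absent in one library and clearly present in the other library of the same landrace and leaf, in at least 2 of the 16 groups. A replicate pair was called discordant where one library stood at 5 or less and the other at 50 or more. The measured values themselves therefore chose these genes, and the counts of discordant pairs are given as a description with no test. A further 1202 genes had exactly 1 discordant pair and were left out.

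The study sequenced RNA of maize (Zea mays) leaf primordia. All plants were grown at 35 °C, which the labels call the heat treatment, and no group from another temperature was analysed here. The 8 native landraces, Gordo, Jala, Mushito, Nal-tel, Palomero, Reventador, Tabloncillo and Zapalote, each gave primordia of the fifth leaf (labelled V5) and of the ninth leaf (V9) at plastochron stage 4. Every group held 2 libraries, 32 in all. The labels do not say whether a library came from 1 plant or from several. Nor do they say whether libraries with the same replicate number share a plant. In the tests of landrace and leaf differences a p-value therefore measures against the spread between libraries, which may be technical. The permutation test compares matchings of the fifth-leaf with the ninth-leaf groups, and its p-value measures no spread between plants.

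A landrace is a farmer-kept, open-pollinated variety. Maize crosses freely, so plants of one landrace can carry different alleles, and maize genomes are known for genes that are present in some plants and missing in others, and for alleles that are silenced or driven by different regulatory sequence. A gene whose active allele is not fixed in a population can be transcribed in one plant and silent in its neighbour. The files give gene IDs without names, positions or sequences, and 0 of the 39756 IDs matched the RefSeq gene table, so no function is given for any gene and the primordium identity of the samples was not checked with marker genes. Genes of plant families with near-identical copies can share reads, and the files do not show which of these genes that touches.

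The 402 genes held 971 discordant pairs. With exactly 2 pairs there were 288 genes, with 3 pairs 73, with 4 pairs 33, with 5 pairs 6, and with 7 pairs 2. The pairs were spread evenly over the leaves, 493 in the ninth leaf and 478 in the fifth. Replicate 1 was the high library in 492 pairs and replicate 2 in 479. In 267 genes both leaves contributed, in 63 only the fifth and in 72 only the ninth. Most genes (277) had their pairs in 2 landraces, 62 in 3, 18 in 4 and 3 in 5, while 42 had them in a single landrace.

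The low library of a pair was usually at nothing or close to it. In 518 of the 971 pairs (53.3%) it held no read, and in 789 (81.3%) at most 3 recovered reads. A count of 0 still allows up to 3 reads, and this floor covers counting error only, since reads without molecular identifiers are not independent molecules. The high library ran from 50.02 to 5424 normalized counts, with a median of 97.3 and quartiles of 67.5 and 172. It was at 100 or more in 468 pairs and at 500 or more in 43. In bulk tissue, fewer cells that use a gene and less RNA per cell cannot be told apart. The highest single value belonged to Zm00001eb423130, singled out after its values were seen. Fifth-leaf replicate 1 of Mushito held 5424 of it against 0 for replicate 2, and the fifth-leaf libraries of Reventador 427 against 0. In both ninth-leaf libraries of Mushito it was at 0.

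Values around the limits formed a continuous range. Just inside lay Zm00001eb040810, at 50.1 against 0 in the fifth leaf of Mushito and 51.3 against 0 in the ninth leaf of Tabloncillo. Zm00001eb331060, also just inside, stood at 2.33 and 50.2 in the fifth leaf of Reventador. Just outside lay Zm00001eb086480 and Zm00001eb335310, both at 49.97 against 0 in the ninth leaf of Nal-tel, so that each kept only 1 discordant pair.

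Zapalote and Mushito held the most pairs. Zapalote had 212 of the 971 (21.8%, 95% exact Clopper-Pearson interval 19.3 to 24.6%) and Mushito 190 (19.6%, 17.1 to 22.2%). Jala followed with 119 (12.3%), Tabloncillo with 117 (12.0%), Gordo with 104 (10.7%), Palomero with 83 (8.55%), Nal-tel with 79 (8.14%) and Reventador with 67 (6.90%). The interval covers counting only, and pairs of 1 gene are not independent. Zapalote and Mushito ranked first at every limit tried for a discordant pair, with Zapalote above Mushito each time. Over all genes measured, Zapalote had 218 fifth-leaf and 237 ninth-leaf discordant pairs, and Mushito 246 and 146. Tabloncillo (151 and 153) and Gordo (107 and 176) both stood above Jala (92 and 131) over all genes. Whether the shares of the chosen genes differ from those of all genes was not tested.

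**Figure D1:**
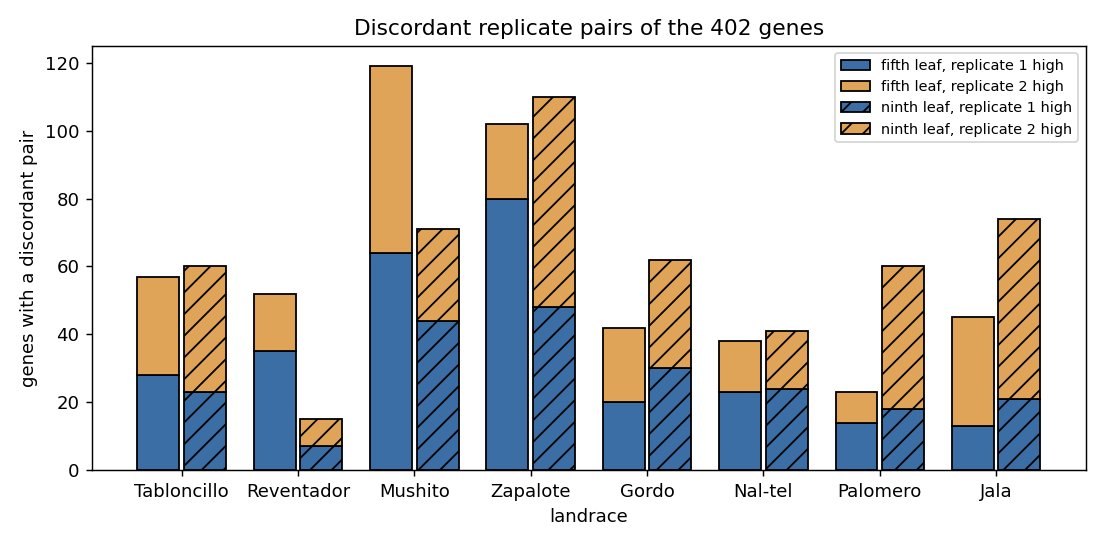
Number of the 402 genes with a discordant replicate pair in each landrace (horizontal axis), with the fifth leaf as the plain bar and the ninth as the hatched bar, split by the replicate that was high. Zapalote reaches 102 and 110 and Mushito 119 and 71, while the ninth leaf of Reventador holds 15.

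In Zapalote, 102 of the genes were discordant in the fifth leaf, 80 with replicate 1 high and 22 with replicate 2 high. Among all genes measured, 0.548% were discordant in that group, 0.433% and 0.116% by direction. In the ninth leaf 110 were discordant, 48 and 62 by direction, against 0.596% of the table (0.231% and 0.365%). Fifth-leaf replicate 1 was also the deeper library, with 77.3 M recovered reads against 57.5 M, and the part of that gap in the uneven split was not tested. Both leaves were discordant in 26 genes. In 14 of these replicate 1 was high in both leaves. Zm00001eb182190 had 0 and 365 for the fifth-leaf pair of Zapalote and 0 and 158 for its ninth-leaf pair, with replicate 2 high in both. The other landraces showed that gene in several states: all 4 libraries of Gordo lay between 117 and 285, all 4 of Tabloncillo between 0 and 3.37.

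In Mushito the fifth leaf gave 119 discordant genes, 64 with replicate 1 and 55 with replicate 2 high, against 0.619% of the table (0.312% and 0.307%). The ninth leaf gave 71, split 44 and 27, against 0.367% (0.209% and 0.158%). Both leaves were discordant in 28 genes, more than in any other landrace. In 23 of the 28 the high replicate numbers were crossed: 14 were high in replicate 2 of the fifth and replicate 1 of the ninth leaf, and 9 the other way round. Zm00001eb429390 was among the 5 with the same number, with 356 and 3.09 for the fifth-leaf pair and 279 and 4.47 for the ninth-leaf pair. Gordo held far more of it, 3452 and 3809 for the fifth-leaf pair and 3909 and 2496 for the ninth-leaf pair. In Zapalote the ninth-leaf pair was discordant for the same gene (2.29 and 687) while the fifth-leaf pair was low (1.75 and 2.43).

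Jala had 45 discordant genes in the fifth leaf, 13 with replicate 1 and 32 with replicate 2 high, against 0.231% of the table (0.0654% and 0.166%). In the ninth leaf there were 74, of which 21 and 53 by direction, against 0.33% (0.0906% and 0.239%). Replicate 2 was thus the high library more often in each leaf. It was the deeper library in the fifth leaf (79.9 M against 63.9 M reads) and the shallower in the ninth (54.9 M against 63.6 M). Of the 14 genes discordant in both leaves, 9 were high in replicate 2 of both. Zm00001eb218220 was one, with 2.26 and 446 for the fifth-leaf pair and 0 and 649 for the ninth-leaf pair. It was also discordant in the fifth leaf of Mushito (176 and 0) and in the ninth leaf of Zapalote (0 and 130.4).

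Tabloncillo had 57 discordant genes in the fifth leaf, 28 and 29 by direction, against 0.38% of the table (0.153% and 0.226%). The ninth leaf had 60, with replicate 1 high in 23 and replicate 2 in 37, against 0.385% (0.128% and 0.257%). Its ninth-leaf replicate 1 was the deepest library of the series, at 121 M reads against 70.5 M in replicate 2. The part of depth in this split was not tested. Both leaves were discordant in 9 genes. Zm00001eb247680 had 0 and 629.6 for the fifth-leaf pair and 0 and 566 for the ninth-leaf pair. All 4 libraries of Reventador held it, from 330.4 to 1009, and all 4 of Gordo were at 4.12 or below. In Nal-tel the fifth leaf held it in both libraries (195 and 944) and the ninth in one (2.08 and 665).

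In Gordo, 42 genes were discordant in the fifth leaf (20 and 22 by direction) against 0.269% of the table (0.113% and 0.156%). The ninth leaf had 62 (30 and 32) against 0.443% (0.191% and 0.252%). Both leaves were discordant in 8 genes, and among these each of the 4 combinations of high libraries occurred 2 times. Zm00001eb301820 had 0 and 272 for the fifth-leaf pair and 0 and 348 for the ninth-leaf pair. In all 4 libraries of Tabloncillo and of Mushito that gene had no read.

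Palomero differed between its leaves, with 23 discordant genes in the fifth (14 and 9 by direction) and 60 in the ninth (18 and 42). The shares of the table were 0.153% (0.101% and 0.0528%) and 0.274% (0.0906% and 0.184%). Both leaves were discordant in 6 genes. Zm00001eb105050 reached 50 in 2 libraries of the series, both of Palomero. The fifth-leaf pair of Palomero held 0 and 152.7 and its ninth-leaf pair 0 and 189. Every other library of the series held at most 9.18, and 27 of the 32 libraries held no read of it.

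In Nal-tel, 38 genes were discordant in the fifth leaf (23 and 15 by direction) and 41 in the ninth (24 and 17). Of the table, 0.209% (0.138% and 0.0704%) and 0.216% (0.131% and 0.0855%) were. Zm00001eb044850, one of 6 genes discordant in both leaves, had 241 and 2.19 for the fifth-leaf pair and 286 and 1.66 for the ninth-leaf pair. Replicate 1 was the high library in both.

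Reventador had 52 discordant genes in the fifth leaf (35 and 17 by direction) and 15 in the ninth (7 and 8), the fewest of any group. The shares of the table were 0.332% (0.211% and 0.121%) and 0.113% (0.0604% and 0.0528%). Of its 5 genes discordant in both leaves, Zm00001eb301080 had 169 and 0 for the fifth-leaf pair and 96.8 and 0 for the ninth-leaf pair. That gene had 5 discordant pairs in all. In Mushito the fifth-leaf pair held 78.5 and 4.12 and the ninth-leaf pair 0 and 55.8, so there the high replicate numbers were crossed.

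**Figure D2:**
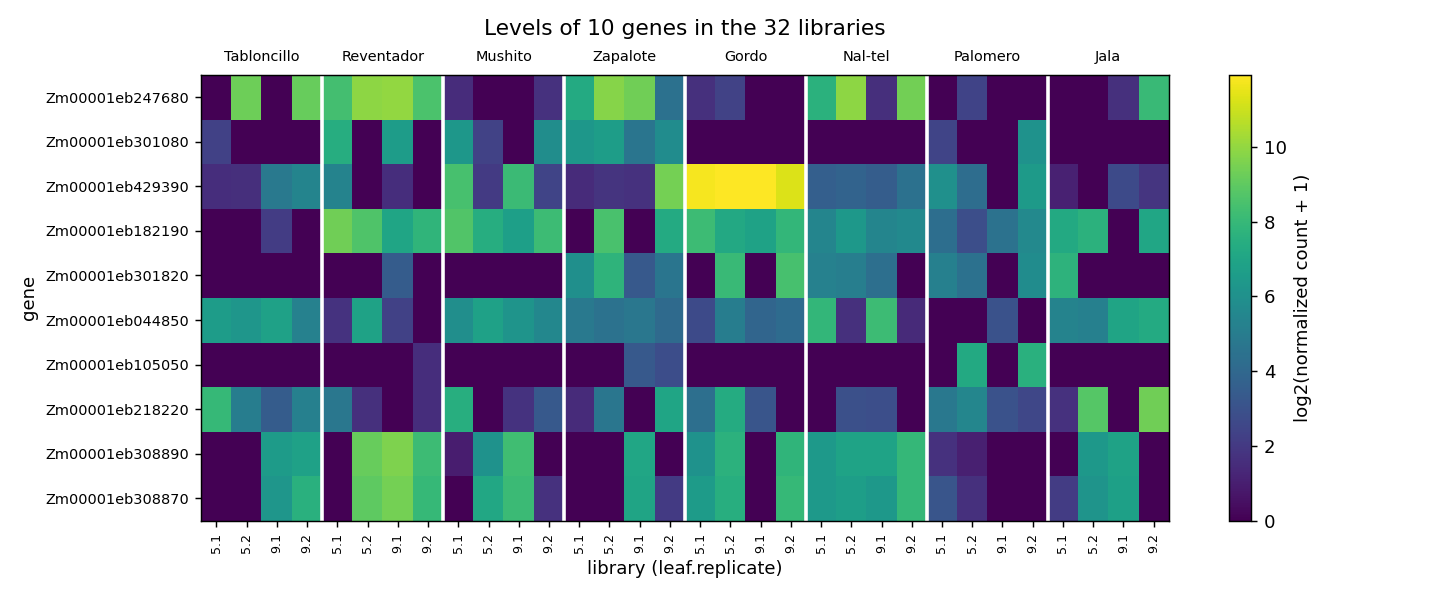
Level of 10 genes as log2(normalized count + 1) (colour) in each of the 32 libraries (horizontal axis, leaf and replicate number, grouped by landrace). The first 8 genes were each chosen for discordant pairs in both leaves of 1 landrace and show 1 dark and 1 bright column per leaf there; the last 2 have 7 discordant pairs each and follow each other.

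The spread of all other genes between replicates did not order the groups in the same way. Over genes outside the 402 with a mean of at least 50, the median absolute log2 difference between replicates ran from 0.159 in the ninth leaf of Reventador to 0.349 in the fifth leaf of Mushito. These groups also held the fewest and the most discordant genes. The groups of Zapalote lay in the middle of that range, with 0.205 for the fifth leaf and 0.245 for the ninth, beside 102 and 110 discordant genes. The fifth leaf of Gordo had 0.316 with 42 discordant genes. A library held between 54.8 and 121 M recovered reads (median 66.0 M).

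By the rule, each gene had at least 2 libraries at 50 or more and at least 2 at 5 or less. The 402 genes reached 50 in a median of 9 of the 32 libraries (quartiles 5 and 15, range 2 to 30). They stood at 5 or less in a median of 13 (range 2 to 30). A label such as on in 1 replicate therefore describes the pair and not the gene as a whole. Each of the 402 genes was read in each of the 8 landraces, 3216 combinations in all. In 399 combinations all 4 libraries were at 50 or more, in 525 all 4 were at 5 or less, and in 869 at least 1 leaf pair was discordant. The remaining 1423 fell in none of these classes. Of the 402 genes, 91 were high in all 4 libraries of some landrace and low in all 4 of another, 103 were uniformly high somewhere and nowhere uniformly low, 137 the reverse, and 71 neither.

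Landraces differed in how many of the genes were uniform. In Nal-tel 52 were high in all 4 libraries and 85 low in all 4, and in Gordo 67 and 68. In Zapalote only 31 were high and 44 low in all 4, and in Mushito 64 and 32. Jala had the most genes low in all 4 libraries, 90, and Palomero the most high in all 4, 68. The choice of genes by their discordant pairs fixes part of this, because a gene discordant in a landrace cannot be uniform there.

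**Figure D3:**
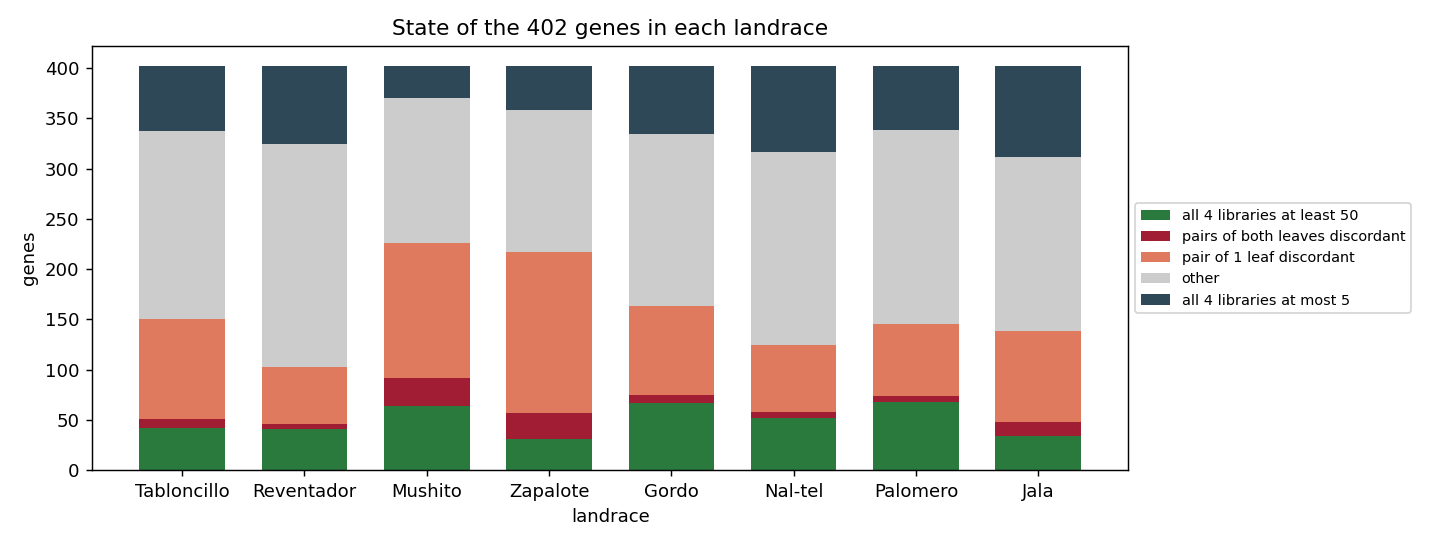
State of the 402 genes (vertical axis, number of genes) in each landrace, by whether all 4 libraries were at 50 or more, all 4 at 5 or less, the pair of 1 leaf or of both leaves discordant, or none of these. Zapalote has 31 genes high and 44 low in all 4 libraries; Jala has 34 and 90.

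Where 1 leaf of a landrace was discordant, both libraries of the other leaf were uniformly high or uniformly low in 43.5% of cases. Of 767 such cases, the other leaf had both libraries at 50 or more in 138 and both at 5 or less in 196. In 433 cases neither held. A discordant leaf beside a uniformly low one was most frequent relative to a uniformly high one in Reventador (24 against 9) and Tabloncillo (27 against 11). In Palomero, Jala and Gordo the uniformly high leaf was the more frequent (16 against 7, 19 against 15 and 22 against 17).

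In 97 of the 402 genes (24.1%) both leaf pairs of at least 1 landrace were discordant, and in 5 of these this held in 2 landraces. Since the rule asks for 2 pairs, it favours such genes, and the share carries no test. Over the landraces there were 102 such cases. The same replicate number was high in both leaves in 50 and opposite numbers in 52. Mushito had crossed numbers in 23 of 28, and the number was the same in 17 of 26 in Zapalote and in 10 of 14 in Jala.

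Whether discordance recurs in the other leaf of a landrace can be asked of genes not chosen by their number of pairs. The limits for a discordant pair and the libraries were the same, and every gene found to recur also meets the rule. Genes were taken from the fifth-leaf pair of a landrace alone, and their ninth-leaf pairs, which that choice does not use, were read in the same landrace and in the other 7. On average over the landraces 9.10% were also discordant in their own ninth leaf and 4.38% in the ninth leaf of another landrace, a difference of 4.72 percentage points. Of all genes in the table, 0.113% (Reventador) to 0.596% (Zapalote) were discordant in a ninth-leaf group. The mean share in another landrace thus also lay above that of the table, so recurrence was not confined to the own landrace. An exact two-sided permutation test over all ways to match the fifth-leaf with the ninth-leaf groups gave p = 2.48e-05, the smallest it can give. The difference was positive in 7 of the 8 landraces. It does not separate recurrence of discordance from the level of a gene in each landrace. A gene discordant in the fifth leaf of a landrace reached the high limit in that landrace. In another landrace the same gene can be uniformly low or uniformly high, and then it cannot be discordant there. The part of such level differences in the result was not tested.

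Jala had the highest recurrence, with 14 of 92 genes (15.2%, 95% exact interval 8.58 to 24.2%) against a mean of 5.28% elsewhere. That interval covers counting only, since genes read in the same libraries are not independent. In Zapalote the recurrence was 26 of 218 (11.9%, against 4.78%), in Mushito 28 of 246 (11.4%, against 5.63%) and in Palomero 6 of 61 (9.84%, against 2.34%). Gordo had 8 of 107 (7.48%, against 4.27%), Nal-tel 6 of 83 (7.23%, against 3.61%) and Tabloncillo 9 of 151 (5.96%, against 3.50%). Reventador went the other way, with 5 of 132 (3.79%) against 5.63%, and its ninth leaf was the group with the fewest discordant genes. In 3 landraces, Mushito, Zapalote and Palomero, the own ninth leaf had a higher share than each of the other 7. In Jala it was level with the ninth leaf of Zapalote, and differences between landraces in recurrence were not tested.

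**Figure D4:**
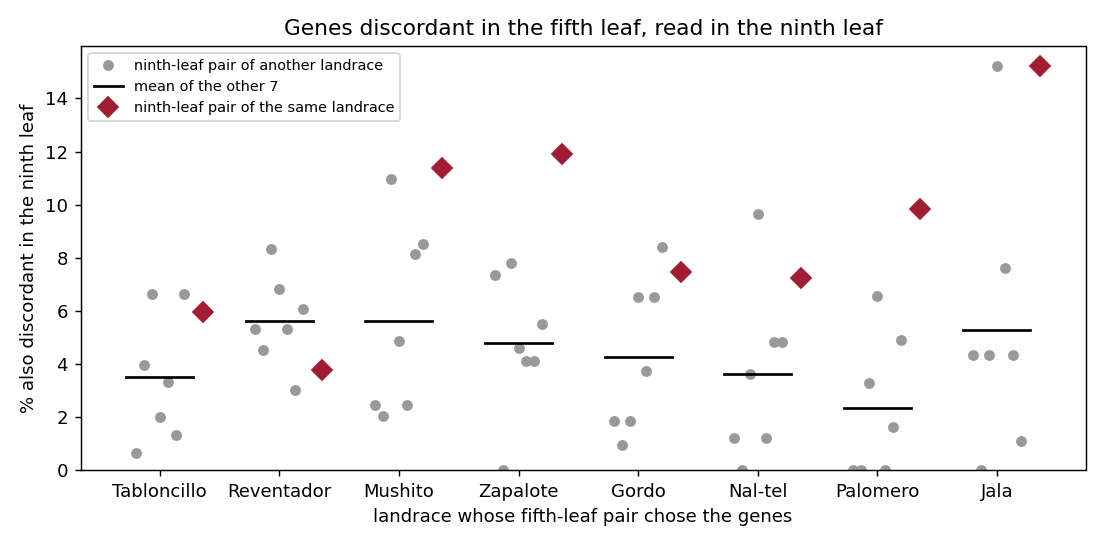
Share of the genes discordant in the fifth-leaf pair of a landrace (horizontal axis) that were also discordant in a ninth-leaf pair (vertical axis, %), in the same landrace (diamonds) and in each of the other 7 (circles, with their mean as a line). The diamond lies above the mean of the circles in 7 landraces and below it in Reventador.

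The same genes turned up in different landraces. Mushito and Zapalote shared 64 genes with a pair in each, 39.5% of those of Mushito and 34.4% of those of Zapalote. Tabloncillo and Zapalote shared 48 (44.4% and 25.8%). Of the genes of Palomero, 42.9% also had a pair in Mushito (33 genes, 20.4% of those of Mushito), and 6.49% one in Tabloncillo (5 genes, 4.63%). The rule keeps genes with pairs in several groups, so these overlaps describe the 402 genes and are not evidence of their own.

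A pair of IDs that follow each other in the table, Zm00001eb308870 and Zm00001eb308890, had the most discordant pairs, 7 each, and had them in the same 7 groups with the same replicate high. In Reventador the fifth leaf held 0 and 506 of Zm00001eb308870 and 0 and 578 of Zm00001eb308890. In the fifth leaf of Mushito the values were 0 and 142 for the first and 0.945 and 67.0 for the second. In its ninth leaf they were 277 and 2.23, and 304 and 0. The high replicate number was thus crossed between the leaves of Mushito for both genes, and the next landrace had the same pattern. In Jala the fifth-leaf pair held 3.39 and 71.8 of the first gene and 0 and 82.6 of the second, and the ninth-leaf pair 109 and 0, and 115 and 0. The ninth leaf of Gordo held 0 and 251 of the first and 0 and 225 of the second, and that of Zapalote 123 and 3.08, and 133 and 0. All 4 libraries of Nal-tel held both genes, from 81.2 to 249.7 and from 83.2 to 243. Over the 32 libraries both genes were at 50 or more in 17 and both at 5 or less in 14, and in none was one high and the other low. How reads were assigned to neighbouring genes is not given in the sources used here, so reads of 1 transcript split over both IDs cannot be told apart from reads of separate genes.

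Consecutive IDs among the 402 genes occurred 13 times. In 9 of these at least 1 discordant pair was shared with the same replicate high, and in 7 at least 2 were. In all, neighbours shared 22 pairs in the same direction and 3 in opposite directions. Of the 22, 7 belonged to Zm00001eb308870 and Zm00001eb308890, whose reads may come from 1 transcript. Zm00001eb303330 and Zm00001eb303340 shared 3 pairs and were both at 5 or less in 24 libraries. No run was longer than 2 IDs. Of the 971 pairs, 64 (6.59%) had a neighbouring ID, among the 402 or not, that was discordant in the same group and direction. The matching rate over all genes was not computed, so these counts are a description only.

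How high the high replicate stood was compared with landraces in which the gene was at 50 or more in all 4 libraries. Such a landrace existed for 473 pairs. The high value was on median 1.10 log2 units below the median of those landraces in the same leaf (log2 ratio -1.10, quartiles -1.81 and -0.35). It lay within 2-fold in 206 pairs (43.6%), more than 2-fold below in 250 and more than 2-fold above in 17. In 18 pairs it was more than 10-fold below. By group the median log2 ratio ran from -1.62 in the fifth leaf of Nal-tel to -0.45 in the fifth leaf of Mushito. Both sides of the ratio are bounded at 50, but not alike. The landraces compared had to reach 50 in all 4 libraries, the discordant pair only in its high library. This choice favours a negative ratio, so the ratios are a description without a test. For the other 498 pairs no such landrace existed.

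**Figure D5:**
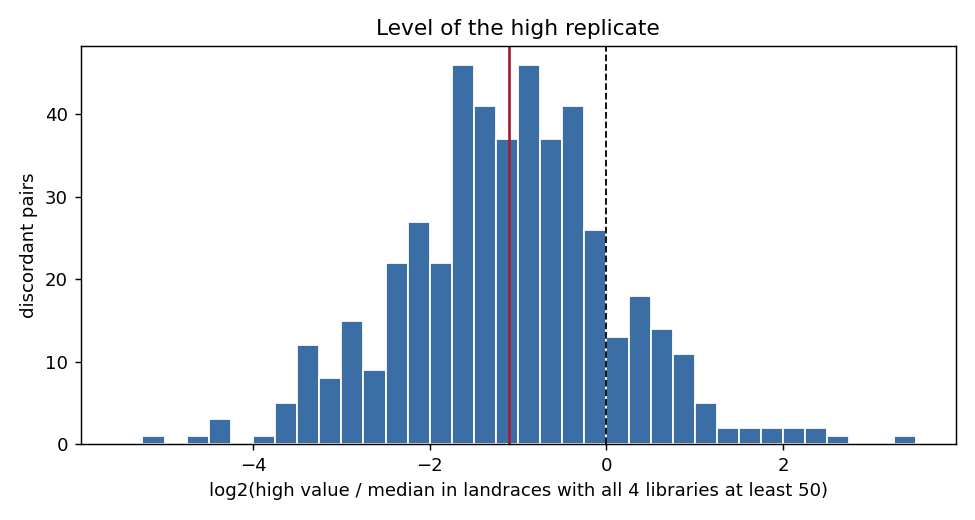
Distribution over 473 discordant pairs of the log2 ratio between the high replicate and the median level, in the same leaf, of other landraces with all 4 libraries at 50 or more. The dashed line marks equal levels and the solid line the median of -1.10; most pairs lie to the left of the dashed line.

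Differences between landraces were tested with limma on all 29255 genes with a mean of at least 3, a limit that each of the 402 genes passes by arithmetic. By the moderated F-test over the 8 landraces 245 of the 402 (60.9%) had an adjusted p-value under 0.05, against 39.2% of all genes tested. The contrast between landraces is not the one that chose the genes, but the same values enter both, and a rule that asks for values from 5 to 50 and beyond favours genes with a wide range. Zm00001eb141590 had the smallest p-value (limma adjusted p = 1.87e-06). Reventador had 3967 and 1625 for the fifth-leaf pair and 569 and 508 for the ninth-leaf pair. Palomero had 401 and 53.0, and 831 and 450.3, in the same order. The libraries of the remaining landraces were at 4.35 or below except for 1 in the ninth leaf of Tabloncillo (92.2, against 1.12) and 1 in the ninth leaf of Jala (59.4, against 0), the discordant pairs of this gene.

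The leaf effect (the ninth less the fifth leaf, averaged across the landraces) passed the limma threshold in 18 of the 402 genes (4.48%), against 16.6% of all genes tested. Of the 18, 6 were higher in the ninth leaf (8.35% of all genes) and 12 lower (8.21%). The median absolute log2 leaf difference was 0.49 for the 402 genes and 0.17 for all genes tested. Discordant replicates raise the residual spread of these genes by construction, so the low share does not show that the leaves were alike. The same spread enlarges the absolute difference, so the median of 0.49 does not show a larger leaf effect either. Zm00001eb282040 had the smallest p-value. In the fifth leaf it ran from 0 to 965 with a median of 105 (191 ± 241, SD, n = 16), and in the ninth from 0 to 41.8 with a median of 5.46 (8.78 ± 10.7, SD, n = 16). The log2 fold change on the log2(value + 1) scale was -3.78 (SE 0.69, limma adjusted p = 0.000736). Its discordant pairs lay in the fifth leaf of Tabloncillo (0 and 408) and of Zapalote (289 and 2.43).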

How the data were processed

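Libraries were directional and poly(A)-selected, per the labels' protocols. STAR, featureCounts and DESeq2 are named in the submitters' processing notes, without role or version; genome build and annotation are not given in the sources used here. The deposited values are a signal, gene counts divided by 1 factor per library: 100% of values were whole multiples of a library's smallest value (tolerance 0.01 of that step), and division by it gave whole reads. Discordant pairs were read from the deposited values. Tests used limma 3.58.1 (R 4.3.3) on log2(normalized count + 1) with 16 group means, eBayes with trend and Benjamini-Hochberg adjustment over all 29255 genes tested; edgeR 4.0.16 and DESeq2 1.42.0 on recovered reads were alternatives. Counts, permutations and plots were made in Python 3.11.15 (scipy 1.17.1, pandas 2.3.3). Scripts were tested on simulated data. The 402 genes, the rule and the lists were chosen with earlier results of these data known. Genes named are, per landrace, the one discordant in both leaves with the greatest lower high value; the 2 with most pairs; 2 on each side of the threshold; the ends of the longest run of consecutive IDs (of runs tied at 2 IDs, the first by group name); and those with the smallest limma p-values. Samples were grouped by their titles.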

Additional observations from a re-analysis of the deposited data

How the results depend on the processing

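The number of genes with at least 2 discordant pairs follows the limits: 201 with a low limit of 2, 729 with 10, 1202 with a high limit of 25 and 137 with 100, and 1604 genes had at least 1 pair and 114 at least 3. Without 1 group in turn, since leaving out either replicate removes its pair, the number ran from 325 to 391. The share of genes with both leaves of a landrace discordant was 48.2% among those with at least 3 pairs and ran from 20.2 to 25.1% without 1 replicate. Shares of the pairs moved beyond their counting interval for Mushito (22.4% with a low limit of 2, 16.9% with a high limit of 25), Palomero (6.75% with a low limit of 2, 5.54% with a high limit of 100), Reventador (8.69% with a low limit of 10), Zapalote (19.2% with a high limit of 25) and Gordo (14.2% with a high limit of 100). The cause was not tested. The recurrence in the same landrace ran from 3.65 to 5.62 percentage points over 13 alternatives. The exact permutation p-values ran from 2.48e-05 to 0.00303, and the direction and call were kept in each. None of these alternatives separates recurrence from the level of a gene in each landrace. The landrace test called 218 to 285 of the genes (54.2 to 70.9%) over the planned settings, against 32.4 to 49.9% of all genes tested. Without 1 library it called 222 to 256 (55.2 to 63.7%), against 33.3 to 41.3%. The leaf effect called 14 to 34 over the planned settings, against 12.5 to 20.2% of all genes tested. The 34 came under DESeq2 (8.46%), where the share of all genes was also highest (20.2%). Without 1 library the leaf effect called 12 to 21, against 13.6 to 18.6% of all genes tested. The labels do not say whether replicate numbers pair the samples, and no pairing was used. Between the leaves, same-numbered deviations correlated across genes from -0.175 to 0.112 over 8 landraces, and 1 was over 0.1. These correlations cannot decide whether libraries share a plant. With the replicate number as a block, 1 term shared by all landraces, 245 and 18 of the 402 genes were called, as without it. Of all genes tested, 38.9% and 16.4% were called with the block.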
